A study of Mus musculus with 96 samples.

Results

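The cytosolic ribosomal protein genes encode the proteins of the large (Rpl) and small (Rps) ribosomal subunits, which make the cell's proteins outside the mitochondria. They were taken by gene symbol: an Rpl or Rps symbol with a number and at most a short suffix, together with Rpsa and the stalk genes Rplp0, Rplp1 and Rplp2, without S6 kinase genes and pseudogene symbols. This gave 84 of the 24066 genes with a symbol of their own: 31 of the small subunit, 43 of the large subunit, 3 of the stalk and 7 paralogs, which are close relatives of a core gene such as Rpl22l1 and Rps27l. In every comparison 81 of the 84 passed the filter on low values, and the other 3 were paralogs at or near 0 in liver: Rpl10l, Rpl39l and Rpl3l, the last 2 with mean scaled levels of 0.35 and 0.11 FPKM in fetuses and under that in adults.

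Poly(A) RNA of C57BL/6J mouse liver was sequenced in 96 libraries: 8 arms, each with 3 libraries at every one of ZT0, ZT6, ZT12 and ZT18, where ZT counts hours from lights-on. During pregnancy mothers lived on a fixed cycle with 12 h light and 12 h dark (control) or on that cycle advanced by 8 h every 5 days (shifted), and livers came from the mothers, from their fetuses and from adult offspring. Offspring were male, met the shifts only through their mothers, and were fed low-fat or high-fat food for 12 weeks from 4 weeks of age, so the 4 offspring arms are low-fat and high-fat offspring of control and of shifted mothers. The labels leave out the gestational day, whether fetuses were pooled, fetal sex and each animal's mother. They also do not say that replicates came from separate animals, so p-values measure only the spread between these libraries, which may be technical. Values are FPKM, fragment numbers normalized to transcript length and to library size, divided here by a scaling factor per library. No counts were given, so depth and the counting error of a value are unknown.

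Ribosomal protein mRNAs are among the most abundant of a cell, and the products are needed in equal numbers in each ribosome. Most of these mRNAs start with a C followed by a run of pyrimidines, the 5′ terminal oligopyrimidine (TOP) sequence, through which mTOR signalling and the protein LARP1 control their translation and stability. In rodent liver the translation of TOP mRNAs is known to follow feeding and the time of day, and fetal liver is known as a fast-growing organ that also houses blood formation.

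RefSeq start windows (build GRCm38.p6) matched 63 of the 84 genes, with 75 windows of 300 bases, 250 before and 50 after the annotated start. A run of at least 5 pyrimidines that opened with C within 5 bases of the start was found in 31 of the 75 windows (41.3%), against 18.3% of all 32851 windows in the table and 22.7% of the 75 windows of mitochondrial ribosomal protein genes. Runs were 5 to 20 bases long with a median of 8. The 9 windows below belong to genes named in the results. Among these genes are Rpl31, Rps18 and Rpl7a for the high-fat offspring, Rpl28 for time of day and Rpl23 for the mothers. Rps2, the 1 gene called between the fetal arms, and the paralogs Rps27l, Rpl22l1 and Rpl7l1 are shown as well. All 9 windows run from 30 bases before to 15 from the start on. They are written 5′ to 3′ along the gene's strand, and capitals mark the pyrimidine run from the C, within 5 bases of the start, at which it was taken to open; pyrimidines directly before that C are in lower case.
Rpl31: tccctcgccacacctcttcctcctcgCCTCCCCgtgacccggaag
Rps18: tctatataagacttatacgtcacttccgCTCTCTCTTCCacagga
Rpl7a: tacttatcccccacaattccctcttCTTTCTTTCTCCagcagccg
Rpl28: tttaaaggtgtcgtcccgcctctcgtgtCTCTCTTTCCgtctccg
Rpl23: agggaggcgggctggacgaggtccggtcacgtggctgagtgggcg
Rps2: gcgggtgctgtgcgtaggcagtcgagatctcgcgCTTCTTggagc
Rps27l: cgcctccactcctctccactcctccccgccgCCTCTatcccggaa
Rpl22l1: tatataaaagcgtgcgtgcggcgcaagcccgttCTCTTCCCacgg
Rpl7l1: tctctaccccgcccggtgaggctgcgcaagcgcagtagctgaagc
They lie at chr1:39367821-39367865 (plus strand, Rpl31), chr17:33955651-33955695 (minus, Rps18), chr2:26910777-26910821 (plus, Rpl7a), chr7:4792935-4792979 (plus, Rpl28), chr11:97782425-97782469 (minus, Rpl23), chr17:24720033-24720077 (plus, Rps2), chr9:66946056-66946100 (plus, Rps27l, the first of its windows), chr3:28805478-28805522 (plus, Rpl22l1) and chr17:46782642-46782686 (minus, Rpl7l1). Each spans the end of the promoter and the first bases of exon 1. By this definition Rpl23 and Rpl7l1 held no run at the annotated start, and the other 7 did, from 5 bases in Rps27l to 12 in Rpl7a counted from that C. In Rpl7a, Rpl22l1 and Rpl28 pyrimidines also lie directly upstream of that C.

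Other short motifs were counted on both strands of the 300-base windows. CCGGAAG, the core of sites for ETS-family factors, was in 36% of the windows of the ribosomal protein genes, in 34.7% of those of mitochondrial ribosomal protein genes and in 8.86% of all windows. The E-box CACGTG was in 10.7% of the windows of the ribosomal protein genes against 7.15% of all windows, and TATAAA in 9.33% against 13.6%. A match is a stretch of letters and was not tested as a binding site.

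The ribosomal protein genes took a far larger share of the summed FPKM in fetal than in adult liver. They held 11.9 to 15.5% of the summed FPKM of the kept genes in the 24 fetal libraries (median 13.9%), 3.46 to 6.13% in the 24 of mothers (median 4.04%) and 3.22 to 6.97% in the 48 of offspring (median 4.77%). By arm the share was 13.5% ± 1.03 in control and 14.2% ± 1.17 in shifted fetuses, and 3.99% ± 0.33 in control and 4.38% ± 0.74 in shifted mothers (SD, n = 12 each). In offspring it was 5.43% ± 0.73 in low-fat animals of control mothers, 5.31% ± 0.90 in low-fat animals of shifted mothers, 4.92% ± 0.75 in high-fat animals of control mothers and 3.699% ± 0.26 in high-fat animals of shifted mothers (SD, n = 12 each). The fetal libraries lay above all adult ones, and the high-fat offspring of shifted mothers had the lowest mean and the smallest spread of the 4 offspring arms.

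**Figure D1:**
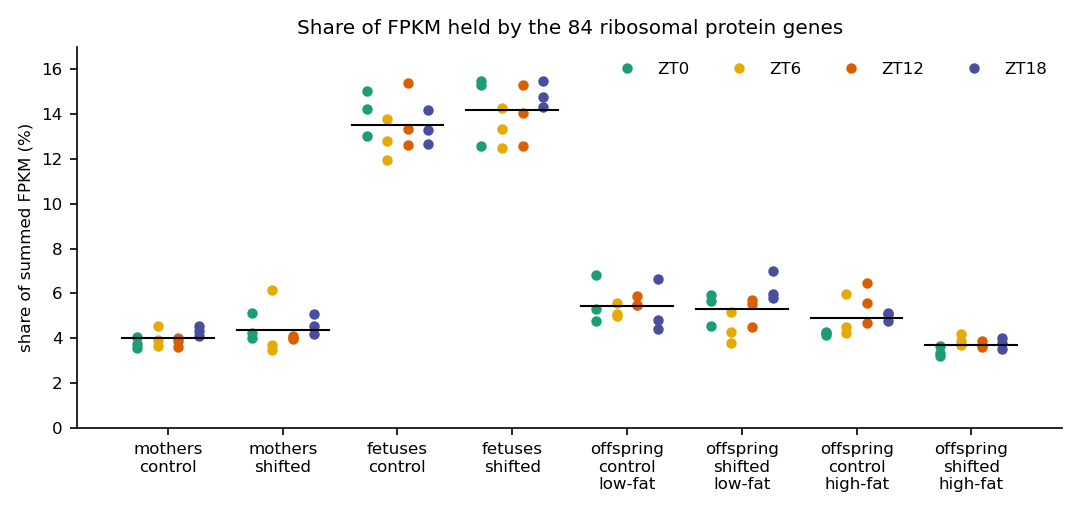
Share of the summed FPKM held by the 84 genes (vertical axis, percent) in each of the 96 libraries, by arm; point colour gives ZT in hours and bars give arm means. Fetal libraries lie between 11.9 and 15.5%, adult ones between 3.22 and 6.97%, and the high-fat offspring of shifted mothers average 3.699%.

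Levels of single genes spread widely although their products are used in equal numbers. On the scaled FPKM scale, which is per transcript length, Rpl41, the smallest ribosomal protein, had the highest mean level in fetuses (3820) and in mothers (806), and Rps29 the highest in offspring (980). Rps12 (3481), Rps29 (3144), Rplp2 (2400) and Rplp1 (2312) followed in fetuses, and Rpl10 (792) and Rps29 (703) in mothers. Among the 81 genes the lowest mean levels in offspring were those of Rps27 (5.20), Rps4l (17.4), Rps15a (18.4), Rpl7l1 (19.5) and Rpl30 (25.5).

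Some of these levels are uncertain. Ribosomal protein genes have many processed copies in the genome, 7 pseudogene entries of this family are in the tables, and fragments shared between copies cannot be told apart in FPKM. For Rps27 the scaled level ran from 0.667 to 56.1 over the offspring libraries with a median of 2.2, whereas Rps27rt, an intronless copy, ran from 435 to 1730 with a median of 815. In 1 library, the high-fat offspring of a control mother at ZT0, replicate 1, Rpl26 and Rpl30 were at 0.022 and 0.0068 and Rpl34 at 15.2, whereas Rpl34 averaged 85.5 ± 25.4 (SD, n = 12) in that arm. The same library had the lowest median correlation with the other libraries of its arm (0.901), and results that rest on Rps27, Rpl26 or Rpl30 are uncertain.

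Comparisons were made gene by gene with limma on log2 of scaled FPKM plus 1, with Benjamini-Hochberg adjustment over all genes tested, and "called" below means an adjusted p under 0.05. A difference of 1 on the log2 scale is a factor of 2. Counts at an unadjusted p under 0.05 are given without the share of all genes at that level. They cannot be read as particular to these genes. Fetal livers were compared with those of their mothers' arms after scaling both together, which addresses how the genes differ between the growing and the adult organ. In control arms 79 of the 81 genes were higher and 1 lower in fetuses, with a median log2 difference of 1.33, where 43.2% of all 12501 genes tested were called higher and 84.8% were called in either direction. In shifted arms 78 were higher and 1 lower with a median of 1.10 (43.6% and 85.2% of all genes). The median over all genes tested was 0.02 and 0.03, and in bulk tissue more RNA per cell and more cells of a type cannot be told apart.

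All 31 small subunit genes were higher in fetuses in both pairs of arms, with median log2 differences of 1.42 and 1.22. Rps12, a protein of the small subunit's beak, was at 497 to 753 scaled FPKM (median 591) in control mothers and at 2143 to 3532 (median 2725) in control fetuses, and no library of one group reached the other. Its difference was 2.17 ± 0.10 (SE; limma adjusted p = 3.52e-21). Rps15a was at 15.3 to 21.3 (median 17.01) in control mothers and 53.7 to 86.5 (median 62.9) in control fetuses, also without overlap, a difference of 1.80 ± 0.08 (adjusted p = 7.96e-22). Rps23, which lies at the decoding centre, differed by 1.505 ± 0.08 in shifted arms (adjusted p = 3.67e-19). Rps6, the substrate of S6 kinase, rose from 242 ± 22.9 to 569 ± 78.1, Rps27a, made as a fusion with ubiquitin, from 442 ± 50.8 to 1207 ± 166, and Rpsa, also known as the laminin receptor, from 248 ± 31.5 to 628 ± 101 (scaled FPKM ± SD, n = 12 per arm).

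Of the 43 large subunit genes, 43 were higher in control and 42 in shifted fetuses, with medians of 1.19 and 0.95. Rpl23a, which sits at the exit of the peptide tunnel, was at 437 to 578 (median 500) in control mothers and at 1299 to 2103 (median 1589) in control fetuses, a difference of 1.66 ± 0.07 (adjusted p = 5.05e-22). The 3 stalk genes, which bring elongation factors to the ribosome, were all higher, and Rplp2 reached 3.80-fold in control arms. Rpl10, which joins the large subunit in the last steps of its maturation, differed least among the core genes: it was at 824 to 1154 (median 970) in control mothers and 921 to 1416 (median 1118) in control fetuses, with overlap and a difference of 0.22 ± 0.06 (adjusted p = 0.0023). In shifted arms Rpl10 was not called (0.03 ± 0.06, adjusted p = 0.619).

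The paralogs did not follow one direction. Rpl22l1, a relative of Rpl22, rose with the core genes by 1.70 ± 0.10 and 1.32 ± 0.10 in control and shifted arms, and Rpl22 itself by 1.09 ± 0.07 and 0.90 ± 0.07. Rps27l, a relative of Rps27 known as a p53 target, was at 275 to 400 (median 314) in control mothers and 172 to 293 (median 222) in control fetuses, the 1 gene called lower (-0.51 ± 0.10, adjusted p = 2e-05). In shifted arms its level was 277 to 702 (median 400) in mothers and 179 to 256 (median 205) in fetuses, with no overlap (-0.94 ± 0.10, adjusted p = 8.38e-11). On values as deposited, without scaling, Rps27l was called higher in control fetuses by 0.22 (limma adjusted p = 0.030). The median of all genes was then 0.551 in control and 0.645 in shifted arms. The members' medians were then 2.05 and 1.95, which is 1.5 and 1.3 above all genes. Rpl7l1, which acts in large subunit assembly, was not called in either pair (0.08 ± 0.07 and 0.10 ± 0.07).

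**Figure D2:**
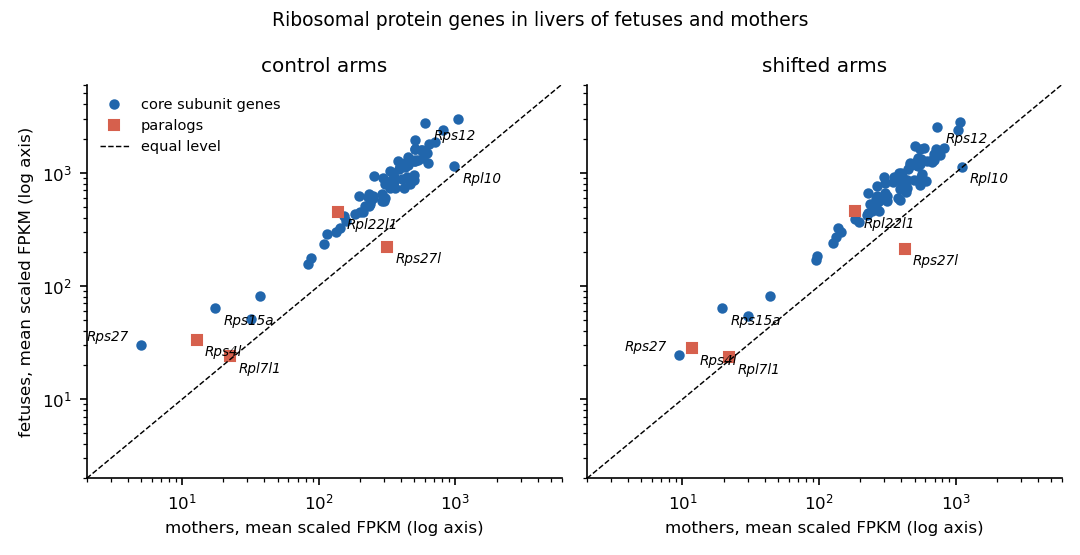
Mean scaled FPKM of each gene in fetuses (vertical, log axis) against mothers (horizontal, log axis), control arms on the left and shifted arms on the right, 12 libraries per mean; circles are core subunit genes, squares paralogs, and the dashed line marks equal levels. Nearly all genes lie above the line, Rps27l lies below it and Rpl10 and Rpl7l1 close to it.

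In control arms no library of one group reached the other for 74 of the 81 genes, all higher in fetuses, where 26.9% of all genes were that way. Cell makeup differed at the same time, and its part in these results was not tested. All 6 erythroid markers in the tables were higher in control fetuses and their summed level, scaled within fetuses and within mothers, was 1175 to 2465 FPKM against 10.9 to 62.3 in control mothers. All 4 cycling markers were higher (142 to 340 against 0.759 to 11.4), as were the 4 fetal hepatoblast markers (15410 to 24410 against 0.386 to 6.08), and all 5 hepatocyte markers were lower (23820 to 79510 against 103900 to 148500); no gene of these lists was at 0 in all libraries of either arm.

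Related gene lists are set here beside the 43.2% of all genes called higher and 41.6% called lower in control fetuses. Of 32 ribosome biogenesis genes, which act in making rRNA and assembling subunits, 25 were higher and 1 lower in control fetuses (Gar1 by 1.57, Nop56 by 1.52 and Bysl by 1.37), and of 21 other TOP translation genes 14 were higher and 5 lower (Pabpc1 by 1.71, Hnrnpa1 by 1.96 and Nap1l1 by 1.86). Of 77 mitochondrial ribosomal protein genes 17 were higher and 34 lower, with a median of -0.12. In the list of growth signalling genes 8 of 25 were higher and 11 lower, near or under those shares. Among the 8 were Asns, which makes asparagine, by 5.53 and Myc by 2.07, and the 11 lower genes are not named here.

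The first effect of the shifted schedule to be asked about is that in the mothers themselves. The ribosomal protein genes were slightly higher in shifted mothers: 17 of 81 were called, all higher, where 3.46% of all 10405 genes were called higher, 4.42% lower and 7.88% in either direction, and the median log2 difference was 0.20 against 0.00 over all genes. The 17 were 5 small subunit genes, 10 large subunit genes and the paralogs Rpl22l1 and Rps27l, and 68 of the 81 differences were above 0. Rpl23, on the face of the large subunit that meets the small one, was at 162 to 206 (median 173) in control and 178 to 287 (median 224) in shifted mothers, so the groups overlapped, as they did for each of the 81 genes (0.0384% and 0.0288% of all genes were separated upward and downward). Its difference was 0.36 ± 0.08 (limma adjusted p = 0.0125), and 11 of 12 shifted libraries were above the control mean at their time. Rpl35a differed by 0.39 ± 0.09 (adjusted p = 0.0187) and Rpl14 by 0.38 ± 0.09 (adjusted p = 0.0191).

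None of the stalk genes was called in the mothers (Rplp0 by -0.01, Rplp1 by 0.19 and Rplp2 by -0.02), nor Rps6 (0.19, adjusted p = 0.071), Rps3 (-0.05), Rpl11 (0.27, adjusted p = 0.058) or Rpl5 (0.08). At ZT0 the members' median difference was 0.41, with every shifted library above every control library for 61 genes (12.1% of all genes at that time), and at ZT18 it was 0.29 with 41 such genes (11.6%). At ZT6 and ZT12 it was 0.12 and 0.00. Of 5 endothelial markers 4 were called lower in shifted mothers, with a summed level of 25.8 to 53.4 against 34.9 to 52.0, and their part in the result was not tested.

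This count was sensitive to single libraries. It ran from 4, without control ZT12 replicate 3, to 30, without shifted ZT6 replicate 1, and 18 of the 24 removals moved it by more than 1.5 times; the median stayed between 0.16 and 0.25. On values as deposited none was called, with a median of 0.12, without the filter on low values 11 were called, and with trends in GC content and transcript length removed from each library the median was 0.13.

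Between fetuses of shifted and of control mothers 1 gene was called. The members' median difference was -0.01, and the gene called among the 81 was Rps2, at the entrance of the mRNA channel, where 1.47% of all 12003 genes were called lower, 2.31% higher and 3.77% in either direction. This count of 1 in 81 was near or under those shares. Rps2 was at 1209 to 2128 scaled FPKM (median 1571) in control and 1088 to 1485 (median 1323) in shifted fetuses. Its ranges overlapped (0.0417% of all genes lay lower without overlap and 0.1% higher). All 12 shifted libraries were below the control mean at their time, which was not counted over all genes. The difference of Rps2 was -0.32 ± 0.08 (limma adjusted p = 0.0262). With GC and length trends removed Rps2 was at -0.21 (adjusted p = 0.126) and Rps15 was the 1 gene called, higher by 0.23 (adjusted p = 0.0369). No member was called without the filter on low values or on values as deposited. Leaving out single libraries gave 0 to 2 calls; 5 of the 24 removals gave none, namely those of control ZT6 replicates 2 and 3, control ZT18 replicate 2, shifted ZT0 replicate 2 and shifted ZT6 replicate 2, and that of control ZT18 replicate 1 gave 2.

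In high-fat offspring the maternal schedule went with a broad difference. Of the 81 genes, 69 were lower in offspring of shifted mothers and none was higher, with a median log2 difference of -0.71, or 0.61-fold. Across all 10931 genes 21.7% were called lower and 48% in either direction, and the median over all genes was 0.01. This comparison asks whether light shifts met only through the mother leave a trace in the adult liver.

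Rpl31, a protein near the exit of the peptide tunnel, was at 182 to 311 scaled FPKM (median 210) in high-fat offspring of control mothers and 89.9 to 163 (median 113) in those of shifted mothers. Every library of the latter lay below every library of the former, and the difference was -0.94 ± 0.09 (limma adjusted p = 6.21e-09). In the high-fat offspring of control mothers its 3 values were 197, 183 and 215 at ZT0, 209, 182 and 183 at ZT6, 295, 311 and 277 at ZT12 and 211, 206 and 237 at ZT18. In those of shifted mothers they were 89.9, 96.7 and 97.8 at ZT0, 112, 105 and 125 at ZT6, 114, 130 and 118 at ZT12 and 145, 163 and 101 at ZT18. The groups were apart at all 4 times.

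Rps18, in the head of the small subunit, was at 616 to 1728 (median 806) against 284 to 574 (median 393), with a difference of -1.13 ± 0.12 (adjusted p = 1.19e-08). Rpl7a was at 445 to 626 (median 531) against 248 to 393 (median 316), a difference of -0.75 ± 0.08 (adjusted p = 1.58e-08). Neither gene's ranges overlapped, and 13 of the 81 genes were separated in this way, against 1.07% of all genes, among them also Rpl15, Rpl27a and Rpl37 of the large and Rps15a, Rps16 and Rps28 of the small subunit, named after their values were seen. For 68 of the 81 genes each of the 12 libraries of shifted mothers' offspring was below the control mean at its time. This last count was not made over all genes.

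The difference ran through both subunits. In the small subunit 28 of 31 genes were lower (median -0.71), in the large subunit 36 of 43 (median -0.74), in the stalk 2 of 3 and among the paralogs 3 of the 4 tested. By function, 7 of 9 genes at the peptide tunnel and its exit, 6 of 7 along the mRNA path and 13 of 16 genes mutated in Diamond-Blackfan anaemia, an inherited failure of red cell production, were lower. Rps6 fell from 265 ± 48.9 to 170.4 ± 25.02, Rps19, the gene most often mutated in that anaemia, from 261 ± 77.3 to 143 ± 22.9, and Rpl11 from 594 ± 142 to 346 ± 54.7 (scaled FPKM ± SD, n = 12 per arm). Rpl13a and Rpl32, often used as reference genes for qPCR, and the ubiquitin fusion Rps27a fell by 0.92, 0.68 and 0.72 on the log2 scale.

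In 12 genes the difference was not called. Rplp0, the base of the stalk, was at 149 to 299 (median 226) against 156 to 214 (median 190), with a difference of -0.19 ± 0.10 (adjusted p = 0.103). Rpl3, near the peptidyl transferase centre, was at 80.6 to 264 (median 159) against 115 to 165 (median 152), a difference of -0.08 ± 0.14. Rpl5, which with Rpl11 and 5S rRNA binds MDM2, differed by -0.20 ± 0.10, Rps3 by -0.17 ± 0.10 and Rpl7l1 by 0.05 ± 0.08. The ranges of these genes overlapped. The others were Rpl4 (-0.17), Rpl9 (-0.02), Rpl41 (-0.17), Rps4x (-0.20), Rps27 (-0.52), Rpl26 (0.00) and Rpl30 (0.04), the last 2 with the values near 0 in 1 library; without that library Rpl30 differed by -0.33 (limma adjusted p = 0.0079). With GC and length trends removed Rpl5 was called too, at -0.20 (adjusted p = 0.0365).

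**Figure D3:**
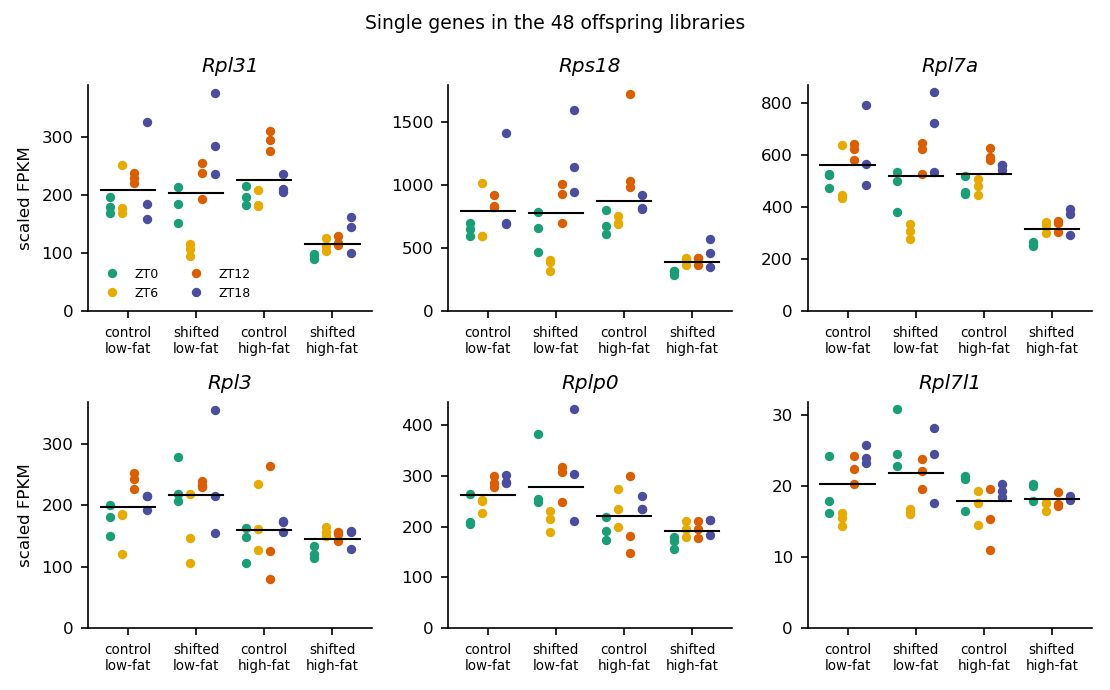
Scaled FPKM (vertical axis, from 0) of 6 genes in the 48 offspring libraries by arm; point colour gives ZT in hours and bars give arm means. Between the high-fat arms, all 12 libraries of shifted mothers' offspring are below those of control mothers' offspring for Rpl31, Rps18 and Rpl7a. Rpl3, Rplp0 and Rpl7l1 overlap between these arms. For Rpl31 and Rps18 the ZT6 libraries of low-fat offspring of shifted mothers lie in the range of the high-fat ones.

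The difference held at each time of day. From ZT0 to ZT18 the members' median was -0.71, -0.53, -0.98 and -0.65 in turn. All 3 libraries of shifted mothers' offspring were below all 3 of control mothers' offspring for 67, 70, 69 and 73 of the 81 genes in turn, against 18%, 21.3%, 22.8% and 17% of all genes at those times. Calls ran through genes with and without a pyrimidine run at the annotated start. They covered 28 of 29 tested genes with a run (median -0.79), 22 of 31 without one (median -0.67) and 19 of 21 with no RefSeq entry (median -0.68). The difference between these sets was not tested. Starts used in these livers were not measured, so a gene without a run here may still be a TOP gene.

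Measures of library and tissue moved along with this comparison, and their part in it was not tested. Across all genes the log2 difference rose with transcript length (Spearman rho 0.442 across genes, which are not independent replicates), and the ribosomal protein transcripts are short, with a median of 1076 bases against 2727. Across the 81 genes that rho was 0.199. With GC and length trends removed from each library 65 genes were lower and none was higher, with a median of -0.46. On values as deposited the median of all genes was 0.21 and that of the members -0.45, which is 0.66 below all genes against 0.72 after scaling; 64 were then called lower and 1 higher. Of 5 hepatocyte markers 2 were called lower and 1 higher (summed level 30650 to 49530 against 40040 to 65720), of 5 endothelial markers 3 were lower (24.05 to 50 against 33.8 to 57.1), and of 3 erythroid markers tested 2 were higher (47.0 to 73.5 against 34.3 to 68.1).

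In low-fat offspring the schedule gave no call. None of the 81 genes was called between offspring of shifted and control mothers by limma, and 0.00915% of all genes were called. The lowest adjusted p was 0.618, and 8 of the 81 had an unadjusted p under 0.05 (share of all genes not given). The median difference was -0.12 and no alternative tried gave a call. The times went in opposite directions: at ZT6 the median was -0.67, with 80 of 81 genes lower and all 3 libraries below all 3 controls for 70 (17.5% of all genes), whereas at ZT18 it was 0.31, with 79 genes higher but none separated upward (6.37% of all genes).

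The interaction of schedule and diet tested directly whether the effect of the maternal schedule differed between diets. Averaged over the times of day, it was called in 65 of the 81 genes, all with a more negative difference in high-fat offspring. Of all genes 10.2% were called in that direction and 24.1% in either, and the members' median interaction was -0.60. At ZT6 the members' median schedule difference was not more negative on high fat: it was -0.665 in low-fat and -0.526 in high-fat offspring. It was -0.0374 and -0.709 in turn at ZT0, -0.0672 and -0.979 at ZT12 and 0.305 and -0.65 at ZT18. A change of the interaction with time was not tested. Rpl31 had an interaction of -0.84 ± 0.13 (limma adjusted p = 0.000186), Rps18 of -0.99 ± 0.17 (adjusted p = 0.000344) and Rpl27a of -1.02 ± 0.18 (adjusted p = 0.000356). With GC and length trends removed 51 genes were called with a median of -0.37, and on values as deposited 49 with a median of -0.40.

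Diet changed few of the genes in offspring of control mothers. There 2 genes were higher and 1 lower on the high-fat diet, with a median of -0.05, where 6.63% of all genes were called higher, 7.86% lower and 14.5% in either direction. None of the 81 was separated (0.0183% of all genes upward and 0.0915% downward). Rps2 was at 486 to 886 (median 589) on low fat and 658 to 892 (median 742) on high fat, overlapping, with a difference of 0.31 ± 0.09 (limma adjusted p = 0.0183). Rps4l, a relative of the X-linked Rps4x, differed by 0.58 ± 0.18 (adjusted p = 0.0243). The count was 14, of which 12 lower, with GC and length trends removed, 23, of which 22 lower, on values as deposited, and 14 without the high-fat ZT12 replicate 1; it was 7 and 6 without high-fat ZT0 replicate 2 and ZT6 replicate 1, and 1 without low-fat ZT18 replicate 3 or high-fat ZT18 replicate 3.

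In offspring of shifted mothers, by contrast, 76 of the 81 genes were lower on the high-fat than on the low-fat diet and none was higher, with a median of -0.65, against 11.6% of all genes called lower and 23.1% in either direction. This comparison shares its high-fat libraries with the one between schedules above. Rps16, whose tail reaches the P site, was at 220 to 884 (median 489) on low fat and 192 to 307 (median 244) on high fat. Its ranges overlapped, as for each of the 81 genes (0.11% of all genes lay lower without overlap), and the difference was -0.88 ± 0.10 (limma adjusted p = 2.94e-07). Rpl15 differed by -0.64 ± 0.08 (adjusted p = 8.46e-07) and Rpl22l1 by -1.15 ± 0.16, from 149.5 to 62.1 scaled FPKM. The 5 not called were Rpl26 (-0.51), Rpl30 (-0.47), Rps2 (-0.22), Rps4l (-0.29) and Rps27 (0.09).

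This diet difference was near 0 at ZT6. The members' median was -0.86 at ZT0, -0.83 at ZT12 and -1.01 at ZT18, with all 3 high-fat libraries below all 3 low-fat ones for 76, 75 and 72 genes (16.9%, 24.2% and 14% of all genes). At ZT6 it was 0.06, with 55 genes higher and 26 lower. There 2 genes were separated below (14.5% of all genes) and 6 above. The share of all genes separated above is not given, so these 6 cannot be read as particular to the set. By limma 68 of the 81 genes had an unadjusted p under 0.05 for a change of the diet difference with time (share of all genes not given). After adjustment 1 of the 81 was called, against 0.146% of all genes. That count was unstable: it was 0 with a pseudocount of 0.1, on values as deposited, with GC and length trends removed or with cosine terms, 2 without the filter on low values, 28 without the 3 offspring libraries that correlated least with their arms, and 59 without low-fat ZT18 replicate 2 and 52 without low-fat ZT0 replicate 3 of shifted mothers' offspring. It was 12 without low-fat ZT0 replicate 2 or high-fat ZT18 replicate 2, and 0 in 12 other removals, among them each of the 3 low-fat ZT6 libraries.

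**Figure D4:**
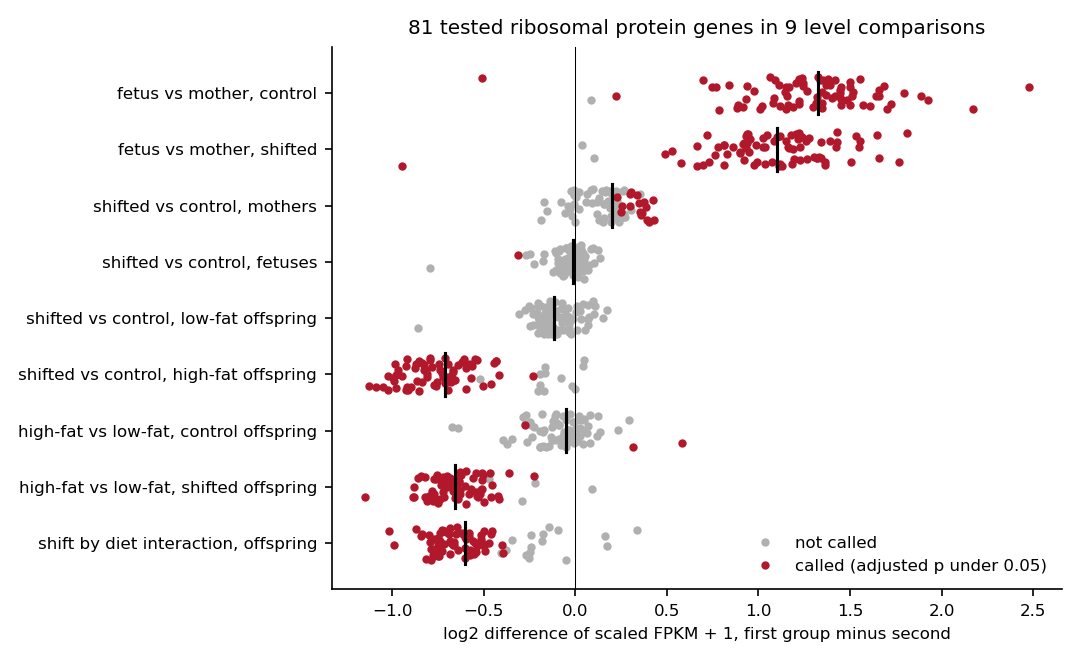
Log2 difference of scaled FPKM plus 1 (horizontal axis) of each of the 81 genes in 9 comparisons (rows), first group minus second; red points were called at an adjusted p under 0.05, grey were not, and bars give medians. Medians are 1.33 and 1.10 for fetuses against mothers, -0.71 for the maternal schedule in high-fat offspring, -0.65 for diet in offspring of shifted mothers and between -0.12 and 0.20 for the schedule in mothers, fetuses and low-fat offspring and for diet in offspring of control mothers.

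Time of day was tested within each arm over the 4 times. Calls were most frequent in low-fat offspring of shifted mothers, where 55 of 81 were called against 23% of all 10368 genes tested. All 55 were highest at ZT18, in the middle of the dark phase, and lowest at ZT6, in the middle of the light phase, with a median fold of 2.43 between the highest and lowest time (range 1.95 to 3.24). Of all 81 genes 77 were highest at ZT18 and 81 lowest at ZT6. Times of highest and lowest level were counted for these genes only in every arm, so no share of all genes stands beside such counts.

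Rpl28, a large subunit gene, had values of 602, 727 and 459 at ZT0, 342, 281 and 347 at ZT6, 775, 893 and 646 at ZT12 and 925, 810 and 1187 at ZT18 in that arm (limma F test, adjusted p = 0.0056). Its ZT6 libraries lay below all 9 others. Rpl31 had 185, 214 and 153 at ZT0, 117, 94.6 and 108 at ZT6, 238, 255 and 194 at ZT12 and 285, 236 and 377 at ZT18 (adjusted p = 0.0059). Rps18 had 658, 786 and 468 at ZT0, 394, 320 and 404 at ZT6, 931, 1007 and 699 at ZT12 and 1145, 948 and 1597 at ZT18 (adjusted p = 0.0068). For all 3 genes every ZT6 value was below every value at the other times.

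The 55 calls fell to 9 without ZT6 replicate 2, 17 without ZT6 replicate 3, 33 without ZT6 replicate 1, 35 without ZT12 replicate 1 and 32 without ZT18 replicate 1, and they were 11 on values as deposited and 35 without the filter on low values. In low-fat offspring of control mothers 2 genes were called (14.2% of all genes), Rpl5 (adjusted p = 0.0359) and Rpl7l1 (adjusted p = 0.0378), while 62 genes were highest at ZT12 and 59 lowest at ZT0, with a median fold of 1.28. Rpl28 there had 631, 652 and 571 at ZT0, 972, 535 and 523 at ZT6, 805, 736 and 836 at ZT12 and 1262, 575 and 661 at ZT18, with 1 high library at ZT6 and 1 at ZT18 (adjusted p = 0.634). Single libraries decided those 2 calls, which were lost for both genes in 7 of the 12 removals (ZT6 replicates 2 and 3, each of ZT12, and ZT18 replicates 2 and 3). The test of whether time acted differently under the 2 schedules in low-fat offspring called none of the 81 (0.0457% of all genes). At an unadjusted p under 0.05 there were 56 (share of all genes not given), and the lowest limma adjusted p was 0.0662 for Rpl31. The count called was 37 without control ZT18 replicate 1, 9 without shifted ZT18 replicate 2 and 1 to 3 without 4 other libraries.

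In high-fat offspring fewer genes were called. In those of shifted mothers 13 genes were called, against 30% of all 10219 genes, among them Rps2 (adjusted p = 0.0213), Rps15 (adjusted p = 0.0251) and Rpl41 (adjusted p = 0.0269); 78 of the 81 genes were lowest at ZT0 and 68 highest at ZT18, with a median fold of 1.36. Rps2 had 457, 423 and 446 at ZT0, 426, 433 and 503 at ZT6, 526, 524 and 525 at ZT12 and 653, 707 and 535 at ZT18. The count moved by more than 1.5 times in 11 of the 12 removals, from 1 without ZT0 replicate 1 or 2 to 75 without ZT18 replicate 3. It was 4 without the filter on low values, 6 with upper quartile scaling, 3 with GC and length trends removed and 2 with a 24 h cosine in place of the 4 times. In those of control mothers none was called by limma (0.766% of all genes), though 47 had an unadjusted p under 0.05 (share of all genes not given). Of the 81 genes 64 were highest at ZT12 and 66 lowest at ZT0. The tests of time by schedule in high-fat offspring (0% of all genes) and of time by diet in offspring of control mothers (0.0274%) called none, and 0 and 1 genes in turn had an unadjusted p below 0.05.

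In mothers and fetuses no gene of the set was called for time of day by limma. The share of all genes called was 4.28% in control and 0.718% in shifted mothers and 0% in both fetal arms, and 2, 0, 0 and 1 of the 81 had an unadjusted p under 0.05. The median fold between highest and lowest time was 1.19 and 1.22 in control and shifted mothers and 1.11 and 1.15 in control and shifted fetuses. In control mothers 72 of 81 genes were lowest at ZT0, and in shifted mothers 73 were lowest at ZT12, a difference that the test of time by schedule did not call for any gene (1.69% of all genes; 1 gene at an unadjusted p under 0.05). The same test in fetuses called none (0% of all genes).

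**Figure D5:**
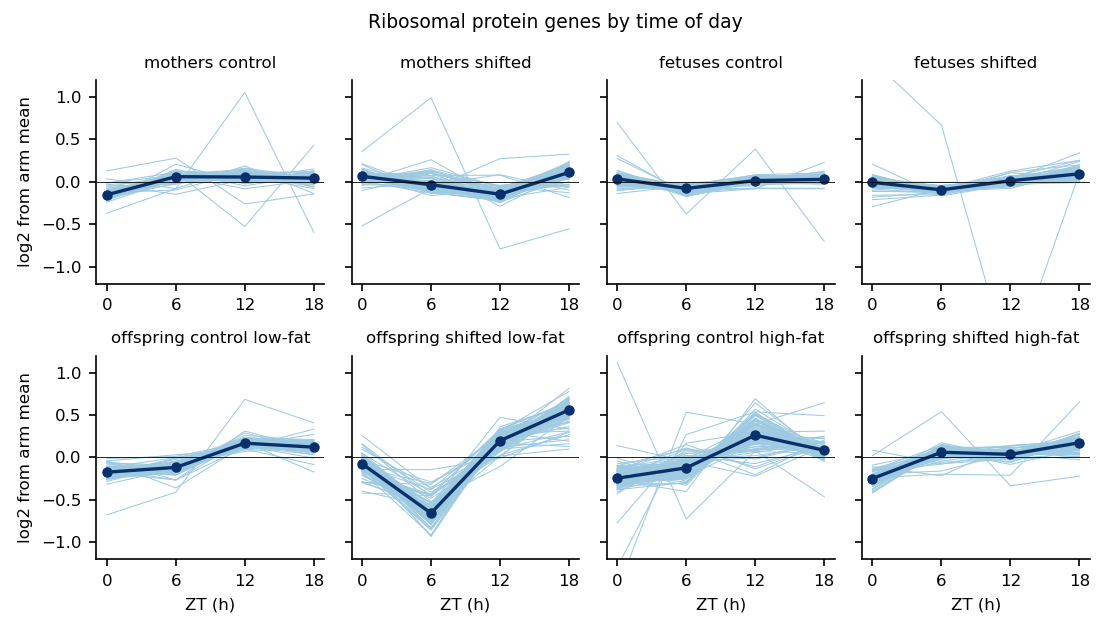
Log2 deviation of each gene's mean at a time from its arm mean (vertical axis) against ZT in hours, 1 panel per arm; thin lines are the 81 genes and the thick line their median. The median runs from -0.66 at ZT6 to 0.56 at ZT18 in low-fat offspring of shifted mothers and stays within 0.27 of 0 in the other arms; lines that leave the panels belong to Rps27 in shifted fetuses and to Rpl26 and Rpl30 in high-fat offspring of control mothers.

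Related lists in high-fat offspring are set beside the 26.4% of all genes called higher and 21.7% called lower between the schedules. Fau, which encodes a ribosomal protein fused to a ubiquitin-like protein and is not matched by the symbol rule, differed by -0.56 ± 0.11 on the log2 scale between offspring of shifted and control mothers. Of 77 mitochondrial ribosomal protein genes 49 were lower and 4 higher (median -0.30), among them Mrpl55 (-0.67), Mrps35 (-0.68) and Mrps30 (-0.57). Of 21 other TOP translation genes 14 were lower and 3 higher, led by Tpt1 (-0.87), Eef1d (-0.75) and Eif3f (-0.60). Of 32 ribosome biogenesis genes 7 were higher, such as Utp20 (0.35) and Tsr1 (0.53), and 7 lower, such as Nhp2 (-0.55), with a median of -0.08, and these counts were near or under the shares of all genes.

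The growth signalling list held 10 higher and 4 lower of 25, against the same 26.4% and 21.7% of all genes. Eif4ebp2, whose product represses cap-dependent translation, was higher by 2.06 ± 0.25 (limma adjusted p = 8.92e-08) and Deptor, an inhibitor of mTOR, by 0.68 ± 0.12. Akt1s1, another inhibitor of mTOR complex 1, was lower by 0.74 ± 0.13. In shifted mothers, where the ribosomal protein genes were slightly higher, 9 of 77 mitochondrial ribosomal protein genes were higher and none lower, 2 of 21 other TOP genes were higher and no biogenesis gene was called, against 3.46% of all genes called higher. Over the day in low-fat offspring of shifted mothers 32 of 77 mitochondrial ribosomal protein genes, 6 of 21 other TOP genes and 8 of 32 biogenesis genes were called, against 23% of all genes. In high-fat offspring of shifted mothers 19, 4 and 14 were called, against 30% of all genes. The counts of other TOP and biogenesis genes in the former and of mitochondrial and other TOP genes in the latter were near or under these backgrounds.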

How the data were processed

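Per the labels, liver RNA was extracted with TRIzol and made into stranded TruSeq mRNA libraries. Per the submitters' processing notes, TopHat2 2.1.1, Cufflinks 2.2.1 and genome build mm10 were used; no source used here gives the annotation or filters. The authors deposited FPKM, normalized to transcript length and library, in 1 table per arm with 24883 entries. Symbols on several entries (280, on 817 entries) were left out. FPKM were divided by median-of-ratios factors within offspring, mothers or fetuses, or over mothers and fetuses for their comparison, and log2(FPKM + 1) was fitted by limma 3.58.1 under R 4.3.3 (a mean for every arm at every time) for genes of at least 1 FPKM in at least 3 libraries. Fold changes on this scale understate those of low genes. The time tests were F tests with 3 degrees of freedom. Adjusted p-values are Benjamini-Hochberg over all genes tested, with a threshold of 0.05. The fit was tested on simulated data. Alternatives were a pseudocount of 0.1, no filter, other scalings, GC and length trends removed (splines, GENCODE transcripts), only the 2 arms compared, a 24 h cosine, the replicate number as a block, leaving out each library, and, added after seeing the data, omission of 3 offspring libraries whose median correlation with their own arm was under 0.95. Since each arm has its own table, a table effect and an arm effect cannot be told apart. Named were, per comparison, the 3 called members of smallest p in each direction (the 1 of smallest p where none was called), members with a set role or of extreme level, and at most 3 called genes of smallest p from each other list. The members and lists were chosen with earlier results of these data known. Some genes that this rule names are not reported here.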

Additional observations from a re-analysis of the deposited data

Results flagged for a closer look

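The effect of the maternal schedule differed between diets by the interaction term, which was called in 65 of the 81 ribosomal protein genes (limma, adjusted p under 0.05), all lower, against 10.2% of all genes called lower and 24.1% in either direction. The 3 of smallest p had interactions of -0.836 (Rpl31), -0.991 (Rps18) and -1.02 (Rpl27a) on the log2 scale. Averaged over the times of day, each had a lower level in high-fat offspring of shifted mothers than the other 3 arms would give. At ZT6 the members' median schedule difference was not more negative on high fat (-0.665 in low-fat and -0.526 in high-fat offspring). At ZT0, ZT12 and ZT18 it was more negative on high fat. In offspring of shifted mothers the diet difference changed with time of day in 1 of the 81 genes by the test of time by diet, against 0.146% of all genes. This count was 0 with a pseudocount of 0.1, on values as deposited or with GC and length trends removed, and ran from 0 to 59 without single libraries, with 16 of 24 removals moving it by more than 1.5 times.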

How the results depend on the processing

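The broad differences kept their direction, with exceptions on values as deposited. There 1 gene was called higher in high-fat offspring, and Rps27l was called higher in control fetuses against mothers. Under every setting tried and each left-out library the genes called stayed within 1.5 times for the schedule in high-fat offspring (67 to 73 without single libraries), diet in offspring of shifted mothers (74 to 78), their interaction (64 to 69) and fetuses against mothers (80 in control, 78 to 79 in shifted arms). For shifted mothers (17) the count was 11 without the filter and 0 on values as deposited, and 4 to 30 without single libraries. For fetuses (1) it was 0 without the filter and 0 as deposited, 1 with GC and length trends removed, with or without the block, in the opposite direction, and 0 to 2 without single libraries. For diet in offspring of control mothers (3) it was 23 as deposited, 14 with GC and length trends removed, with or without the block, and 1 to 14 without single libraries. Time of day in low-fat offspring of control mothers (2) gave 1 without the filter, with upper quartile scaling or with GC and length trends removed, 0 as deposited and with the block, 5 with cosine terms, and 0 to 3 without single libraries. In low-fat offspring of shifted mothers (55) it gave 35 without the filter, 11 as deposited, 36 with the block, 25 with block and GC and length trends removed, and 9 to 71 without single libraries. In high-fat offspring of control mothers (0) it gave 1 without the 3 libraries of low correlation. In high-fat offspring of shifted mothers (13) it gave 4 without the filter, 6 with upper quartile scaling, 2 with the block, alone or with GC and length trends removed, 3 with those trends removed, 2 with cosine terms, and 1 to 75 without single libraries. Time by schedule in low-fat offspring (0) gave 5 without the libraries of low correlation and 0 to 37 without single libraries. Time by diet in offspring of control mothers (0) gave 0 to 2 without single libraries. In offspring of shifted mothers (1) it gave 0 with a pseudocount of 0.1, as deposited, with GC and length trends removed or with cosine terms, 2 without the filter or with the block, 28 without the libraries of low correlation, and 0 to 59 without single libraries. Of single genes, Rps27l was at 0.22 in control fetuses against mothers as deposited, and Rpl30 in high-fat offspring was at -0.37 without the libraries of low correlation and at -0.33 to 0.24 without single libraries. The cause of these changes was not tested.

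Replicate numbers did not pair the libraries: of 12 same-numbered pairs each, correlations of their deviations from group means exceeded 0.1 in 1 for mothers, 3 for fetuses, 3 for low-fat and 0 for high-fat offspring. Where a setting leaves fewer libraries in a group, the rest are assumed to vary like the other groups. Without counts, the depth behind a value is unknown.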
